A study of Arabidopsis thaliana with 20 samples.

Results

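Transposable element genes are the annotated genes of mobile DNA, and 1426 peaks of the heat shock factor HSFA1d lay at them in 6 deposited peak lists, out of 7502 listed peaks in all. Rows of a list with equal fold enrichment and equal q that overlapped or adjoined, with a gap of at most 1 base, were joined into peaks. A peak was taken when at least 1 of its rows had the annotation class of transposable element genes and it touched neither chromosome 2 from 3.2 to 3.65 Mb nor the first 50 kb of chromosome 2. The 1426 peaks named 388 transposable element genes. The HS list held 387 of them, HT0 495, WT0 87, W10min 130, W3h 126 and W24h 201.

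The lists came from chromatin immunoprecipitation and sequencing of whole Arabidopsis thaliana seedlings 2 weeks old, grown at 22 °C. All 20 samples, 10 of ChIP and 10 of input chromatin, carried the fusion pHSFA1d::HSFA1d-GFP in a mixed Col-0 and Ws background, whereas the reference genome is that of Columbia. Antibodies against GFP pulled the fusion protein down. HS seedlings spent 30 min at 37 °C and HT0 was the untreated time 0 of that series, with 3 ChIP and 3 input samples each. WT0 was the untreated time 0 of the wounding series, and W10min, W3h and W24h followed 10 min, 3 h and 24 h after cuts with a razor blade, with 1 ChIP and 1 input sample each. Each sample was made from about 60 seedlings, and each condition has 1 list from concatenated reads. No value below therefore has a spread between replicates, no test between conditions was possible, and differences between lists are descriptions. Depth is unknown beyond a floor of 10 M mapped reads per library.

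HSFA1d belongs to the class A1 heat shock factors, which bind heat shock elements in DNA and switch on chaperone genes when proteins unfold. Transposable elements of Arabidopsis crowd around the centromeres, in compact chromatin that is kept silent by DNA methylation and repressive histone marks. Some escape that silencing under stress, and the best known in this species is ONSEN (ATCOPIA78), a Copia retrotransposon that carries heat shock elements in its terminal repeats and is transcribed on heat. Transposable elements exist in near-identical copies. How reads that match several copies were placed is not given in the sources used here, so the copy at which a peak is listed is uncertain.

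HSFA1d peaks at transposable element genes were most numerous in the untreated HT0 list, followed by HS and then by the wounding lists. The place of HS above the wounding lists held for the full lists but not for the strongest peaks, since with a q no higher than 1e-05 HS had 18 of them, against 24 in W10min and 31 in W24h. Outside the chromosome 2 stretches they were 20.5% of the HS peaks (387 of 1889) and 43.6% of the HT0 peaks (495 of 1136). In the wounding series they were 6.19% of the WT0 peaks (87 of 1405), 9.51% at 10 min (130 of 1367), 23.0% at 3 h (126 of 548) and 47.2% at 24 h (201 of 426). The highest shares thus stood in an untreated list and in the list 24 h after wounding. Other peaks numbered 1502 in HS and 641 in HT0, and 1318, 1237, 422 and 225 in WT0, W10min, W3h and W24h. A share thus depends on the number of other peaks too. The heat lists pool 3 ChIP samples and the wounding lists rest on 1, and that difference cannot be told apart from the series.

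Peak callers give each peak a q, a p-value adjusted over all candidate peaks, and many peaks at transposable element genes had a high one. In HS 145 of 387 (37.5%) had a q no higher than 0.05, and in HT0 256 of 495 (51.7%). The wounding lists had 49 of 87 such peaks in WT0 (56.3%), 82 of 130 at 10 min (63.1%), 72 of 126 at 3 h (57.1%) and 104 of 201 at 24 h (51.7%). Among other peaks the shares were 51.1% in HS and 39.8% in HT0, and 48.0, 52.5, 56.2 and 44.0% in WT0, W10min, W3h and W24h. HS was the list in which peaks at transposable element genes passed less often than other peaks, by 37.5% against 51.1%, and in the other 5 lists they passed more often at this threshold. A q of 1 was listed for 100 of them in HS and 82 in HT0, and for 13, 16, 18 and 34 in WT0, W10min, W3h and W24h. With a q no higher than 1e-05 there were 18 in HS and 55 in HT0, and 13, 24, 17 and 31 in WT0, W10min, W3h and W24h. These were 4.65% of the peaks at transposable element genes in HS and 11.1% in HT0, and 14.9, 18.5, 13.5 and 15.4% in the wounding lists in order of time. Among other peaks the shares were 22.6% in HS and 10.9% in HT0, and 5.84, 12.9, 14.9 and 10.2%, so in W3h as in HS other peaks passed the stricter threshold more often.

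**Figure D1:**
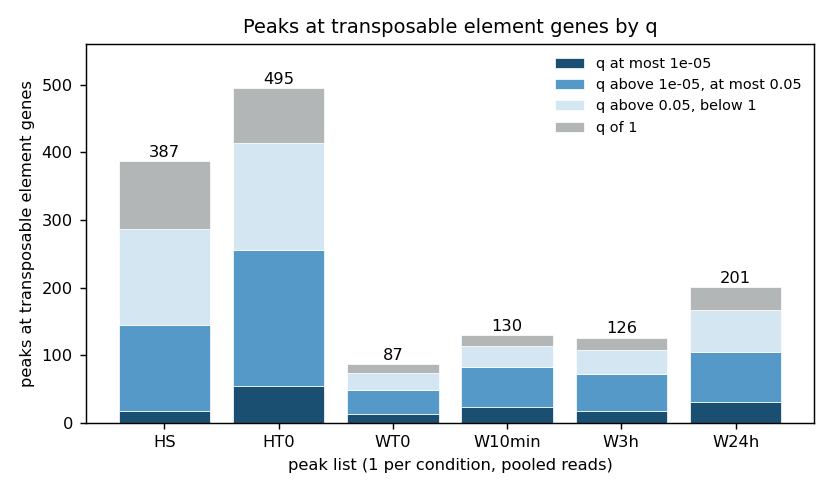
Number of peaks at transposable element genes in each list (y axis), stacked by the q that the authors gave. HT0 holds the most (495) and WT0 the fewest (87), and the grey part, with a q of 1, is tallest in HS (100 peaks).

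The annotation rows of these peaks seldom named anything else. Between 90.7% (HS) and 93.5% (W24h) of them had rows of the transposable element gene class alone. A promoter of a protein-coding gene was also named by 34 peaks each in HS and HT0 and by 6, 9, 10 and 12 in WT0, W10min, W3h and W24h, and a protein-coding gene body by 1 (W10min) to 3 (HS and HT0). Several peaks often lay in the same element. In HS 387 peaks named 220 genes, 68 of them at least 2 times, and in HT0 495 peaks named 253 genes, 95 of them at least 2 times. In WT0, W10min, W3h and W24h 70, 94, 98 and 148 genes were named.

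On each chromosome most of the peaks stood in 1 stretch in every list, where few of the other peaks lay. The peaks were picked by annotation, and transposable elements crowd around the centromeres, so such a position follows at least in part from the choice. The share of all annotated transposable element genes in these stretches was not counted, so the values do not show a preference of HSFA1d. Intervals from the 10th to the 90th percentile of the HT0 peaks ran from 13.2 to 20.5 Mb on chromosome 1, 2.09 to 5.57 Mb on chromosome 2, 11.5 to 16.8 Mb on chromosome 3, 1.84 to 5.06 Mb on chromosome 4 and 10.1 to 13.1 Mb on chromosome 5. These intervals were drawn from HT0, so HT0 itself is no check of them. They held 309 of 387 peaks at transposable element genes in HS (79.8%), 68 of 87 in WT0 (78.2%), 102 of 130 at 10 min (78.5%), 96 of 126 at 3 h (76.2%) and 162 of 201 at 24 h (80.6%), against 393 of 495 in HT0 (79.4%). The shares were thus alike in treated and untreated lists, at 76.2% to 80.6%. Of other peaks, the intervals held 5.93% in HS and 13.3% in HT0, and 3.49, 4.53, 8.06 and 12.4% in WT0, W10min, W3h and W24h. Read the other way, peaks at transposable element genes were 77.6% of all peaks inside the intervals in HS and 82.2% in HT0, and 59.6, 64.6, 73.8 and 85.3% in the wounding lists in order of time.

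**Figure D2:**
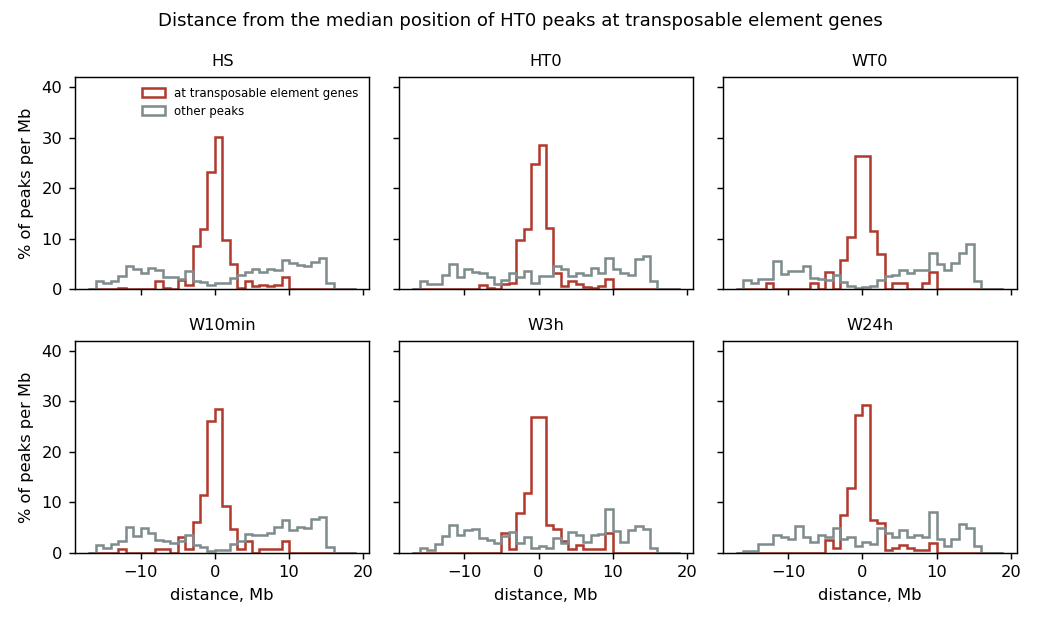
Distribution of peaks at transposable element genes (red) and of other peaks (grey), as a percentage of each kind per Mb, by distance from the median HT0 position on the same chromosome. Within 3 Mb of that position lie 84.1% (W3h) to 90.3% (HT0) of the red peaks and 5.08% (WT0) to 17.0% (HT0) of the grey ones.

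In every list the shares of the 5 chromosomes spanned a narrower range for these peaks than for other peaks. In W3h, for example, they ran from 14.3% to 25.4%, against 11.1% to 29.6% for other peaks. The values of the heat lists follow. Chromosome 1 had 20.9% of them in HS and 19.4% in HT0, chromosome 4 had 20.4% and 22.4%, and chromosome 5 had 18.6% and 16.6%. Of other peaks chromosome 1 had 26.4% in HS and 29.0% in HT0, chromosome 4 had 14.4% and 12.9%, and chromosome 5 had 25.4% and 22.3%. A group of peaks outside these intervals lay on chromosome 3 between 22 and 23 Mb, at AT3G60930 and AT3G60935 in every list, at AT3G60965 in every list but W10min, and at the ONSEN copy AT3G61330 in the heat lists. It held 9 peaks in HS, 10 in HT0, and 3, 3, 5 and 4 in the wounding lists in order of time, and was noticed after its values were seen. Peaks on either side of the excluded start of chromosome 2 had overlapping folds. Just beyond the first 50 kb of chromosome 2, at 58908 to 66047, HS had 7 peaks of 1.48-fold to 2.47-fold, and the nearest excluded ones, at 24217 to 48130, numbered 13 with 1.37-fold to 2.11-fold.

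Fold enrichment, a ratio that the authors gave for each peak, ranks peaks only within a list. At transposable element genes its median was 1.60 in HS and 1.61 in HT0, and 1.76, 1.85, 1.69 and 1.77 in WT0, W10min, W3h and W24h. Other peaks had medians of 1.78 in HS and 1.61 in HT0, and of 1.82, 1.96, 1.80 and 1.78 in the same wounding lists. The medians of the 2 kinds of peak thus lay closest in HT0 and W24h and farthest apart in HS. The top of the HS list was almost free of them. Of the 193 HS peaks above the 90th percentile of fold, at 2.95 or more, 1 was at a transposable element gene, against 44 of 114 such peaks in HT0. In WT0, W10min, W3h and W24h the numbers were 12 of 152, 14 of 146, 10 of 56 and 23 of 44. As shares of the peaks at transposable element genes, these were 0.258% in HS and 8.89% in HT0. In the wounding lists they were 13.8, 10.8, 7.94 and 11.4% in order of time, so the near absence from the top was seen in HS alone. The single HS peak was that of AT2G07080, at 2.99-fold, while the highest fold of other HS peaks was 5.60.

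**Figure D3:**
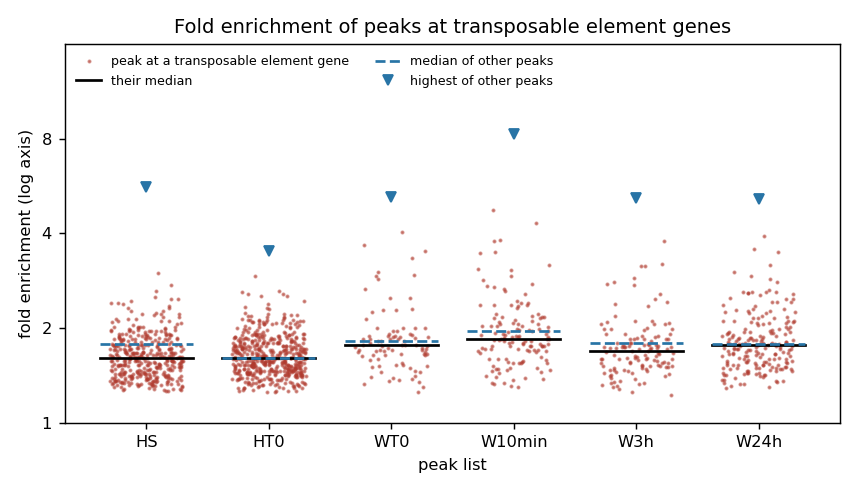
Fold enrichment (log axis) of each peak at a transposable element gene in each list, with their median (black), the median of other peaks (dashed) and the highest other peak (triangle). In HS the highest point is 2.99 and the triangle stands at 5.60, whereas in W10min the highest point is 4.74 and the triangle stands at 8.30.

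Listed widths were short. Peaks at transposable element genes had a median width of 86 bp in HS and 106 bp in HT0, against 154 bp and 124 bp for other peaks. In WT0, W10min, W3h and W24h the medians were 189, 202, 224 and 218 bp, against 215, 228, 227 and 210 bp for other peaks. Both kinds of peak were narrower in the heat lists than in the wounding lists. The lists leave out what of a peak falls between features, so a width can be a remnant, and the shortest was 1 bp in HS. A peak cut by such a gap can also be counted more than 1 time. In W10min neighbouring pieces at AT2G10780 and AT2G10790 had the same fold (2.36) and q (3.18e-05), and in W24h they again had equal values. How often peaks were cut in this way was not counted. In all, the peaks covered 42.7 kb in HS and 69.6 kb in HT0, and 22.6, 31.8, 33.7 and 51.1 kb in WT0, W10min, W3h and W24h.

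The 3 peaks of highest fold in HS all lay at sites that had a peak in HT0 too. AT2G07080, at chromosome 2, 2938307 to 2938387, led HS with 2.99-fold (q 3.52e-18), and in HT0 a peak at 2938301 to 2938397 led with 2.94-fold (q 1.89e-18). AT5G30673, on chromosome 5, had 2.75-fold in HS (q 2.55e-08) and 2.61-fold in HT0 (q 1.2e-09). AT5G32402, on the same chromosome, had 2.62-fold in HS (q 7.67e-08) and 2.54-fold in HT0. The first 2 of these sites had no peak in a wounding list. AT3G29615, on chromosome 3, the second in HT0 with 2.63-fold (q 2.09e-10), had 2.23-fold in HS at that site.

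Of the 387 HS peaks at transposable element genes, 219 (56.6%) overlapped some HT0 peak by 1 bp or more. Over all HS peaks outside the stretches the share was 25.8%, and over other peaks it was 17.9%. In this direction peaks at transposable element genes were shared more often than peaks at large, but not clearly in the other: 211 of 495 HT0 peaks at transposable element genes (42.6%) met an HS peak, against 41.5% over all HT0 peaks and 40.6% of the others. No test was possible, and peaks of neighbouring or repeated elements are not independent. The other 168 met none, and 93 of these lay in a transposable element gene that had an HT0 peak elsewhere along it. Their median fold was 1.61, close to the 1.60 of the 219 that met one. A q of at most 0.05 was less frequent among them, at 50 of the 168 against 95 of the 219.

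At a q of at most 1e-05, 5 of the 18 such peaks in HS had no HT0 counterpart. The highest of all 168 was at AT4G06656 on chromosome 4, 3850339 to 3850392, with 2.51-fold (q 2.4e-06), in an element that had 10 peaks in HT0. AT2G06470 (2.41-fold, q 4.54e-06), AT3G30825 (2.41-fold, q 4.54e-06), AT5G30942 (2.39-fold, q 5.37e-06) and AT2G09953 (2.36-fold, q 1e-05) came next. None of these 5 sites had a peak in a wounding list. All were 54 to 74 bp wide as listed and all lay below the 2.95-fold of the 90th percentile of the HS list.

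The wounding lists shared fewer of these peaks with their own time 0. In W10min 43 of 130 (33.1%) met a WT0 peak, against 32.4% over all W10min peaks. In W3h 36 of 126 (28.6%) did, against 46.4%, and in W24h 38 of 201 (18.9%), against 35.2%. The share of W10min was thus near that of the list as a whole, while in W3h and W24h peaks at transposable element genes met WT0 less often than peaks at large. WT0 was the list with the fewest such peaks. HT0, the untreated list of the other series, was met by 73 of 130 at 10 min (56.2%), 83 of 126 at 3 h (65.9%) and 99 of 201 at 24 h (49.3%), against 18.1, 35.0 and 40.1% over all peaks.

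Other peaks of the wounding lists had the opposite order. They met WT0 in 32.3% (W10min), 51.7% (W3h) and 49.8% (W24h), and HT0 in 14.1%, 25.8% and 32.0%. So peaks at transposable element genes met HT0 more than WT0, and other peaks met WT0 more than HT0. HT0 held 495 peaks at transposable element genes and WT0 87, and the part of that difference in these shares was not tested. WT0 peaks at transposable element genes themselves met an HT0 peak in 52 of 87 cases (59.8%), against 17.1% of other WT0 peaks. The wounding comparisons share WT0, so they are not independent of each other.

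**Figure D4:**
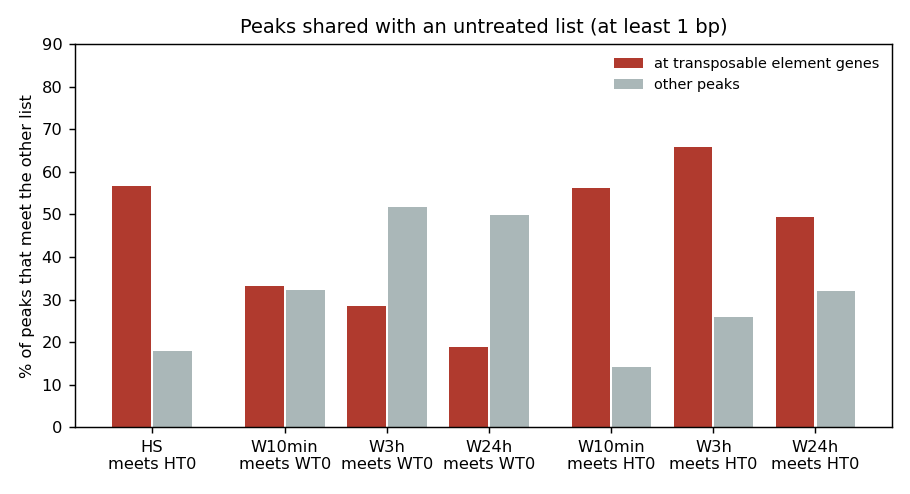
Percentage of peaks at transposable element genes (red) and of other peaks (grey) in a treated list that meet a peak of an untreated list by at least 1 bp. HS peaks at transposable element genes meet HT0 in 56.6% of cases, and those of W24h meet WT0 in 18.9% and HT0 in 49.3%.

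Among W10min peaks that met no WT0 peak, 52 of 87 reached a q of at most 0.05 and 11 reached 1e-05. The highest lay at AT3G43356 on chromosome 3, 15305279 to 15305449, with 3.17-fold (q 3.14e-10). AT2G01040, at chromosome 2, 65870 to 66050, followed with 3.08-fold (q 3.83e-10) and AT3G31390, on chromosome 3, with 2.85-fold (q 6.49e-08). The sites of AT3G43356 and AT2G01040 had a peak in HT0, of 1.91-fold and 1.99-fold, and in HS, of 1.52-fold (q 0.111) and 1.48-fold (q 0.261). That of AT2G01040 also had a peak in W3h, of 2.57-fold (q 9.12e-10). The site of AT3G31390 was listed in W10min alone. AT2G01040 lies next to the excluded start of chromosome 2.

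Over the 6 lists, overlapping peaks formed 774 sites, in which peaks can be linked through another peak and need not all overlap each other. Of these, 457 (59.0%) had a peak in 1 list, 177 in 2, 65 in 3, 40 in 4, 15 in 5 and 20 (2.58%) in all 6. Sites were formed from peaks at transposable element genes alone, and no like count was made for other peaks. Whether these shares differ from those of the lists at large is therefore unknown. HT0 alone accounted for 202 sites, HS alone for 127, and both heat lists without a wounding list for 90. W24h alone had 64, W10min alone 28, W3h alone 22 and WT0 alone 14. Both series had a peak at 202 sites, and a peak in HS and W10min with none in either untreated list was found at 9.

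A gene can hold several sites, so lists can share a gene without sharing a site, and more sharing by gene is no finding in itself. No like overlap was counted for the genes of other peaks. The 220 transposable element genes with a peak in HS and the 253 in HT0 had 149 in common, 67.7% of the HS genes and 58.9% of the HT0 genes. W10min and WT0 shared 45, which is 47.9% of the 94 W10min genes and 64.3% of the 70 WT0 genes. In all 6 lists a peak was present at 22 of the 388 genes. AT2G10780 and AT2G13390, both on chromosome 2, had the most peaks, with 36 each over the lists, and were picked after their values were seen. AT2G10780 had 13 peaks in HS, 14 in HT0, and 0, 2, 2 and 5 in the wounding lists. AT2G13390 had 8 in HS, 14 in HT0, and 4, 7, 1 and 2 in the wounding lists. Their genes are 5376 and 8789 bp long in the RefSeq table, and the counts were not divided by length.

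The 20 sites with a peak in all 6 lists lay in 18 genes on chromosomes 1 to 4, 8 of them on chromosome 4 and 0 on chromosome 5. They held 27 of the 387 HS peaks (6.98%) and 27 of the 495 HT0 peaks (5.45%), and 23.0% of the WT0 peaks at transposable element genes. At 7 sites the q was at most 0.05 in every list. At 6 of the 20 the folds of all 4 wounding lists were above those of both heat lists and ranked 12 or higher among the peaks at transposable element genes. At AT3G43862 and AT3G60930 they were also above both heat lists, but at lower ranks. Folds of different lists are not on 1 scale.

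AT4G08340, at chromosome 4, 5267916 to 5268336, had 1.90-fold in HS and 2.12-fold in HT0, and 3.34, 4.31, 3.16 and 3.92-fold in WT0, W10min, W3h and W24h. It ranked 65 of 387 in HS and 29 of 495 in HT0, and 4 or higher in each wounding list. AT2G10600, at chromosome 2, 4130313 to 4130507, had 1.95-fold in HS and 1.80-fold in HT0, and 3.01, 3.05, 2.88 and 2.61-fold in the wounding lists in the same order. Both sites were picked for a peak in every list, the untreated ones included. The next in median fold, AT2G01037 on chromosome 2, had 2.47-fold in HS and 2.07-fold in HT0, above its 1.68, 1.54, 1.25 and 1.98-fold in the wounding lists. AT3G60935, on chromosome 3, had 1.68-fold in HS, 1.81-fold in HT0, and 1.45, 2.07, 1.86 and 1.85-fold in the wounding lists. These peaks were in part linked only through others. Those of HS and W3h overlapped neither the WT0 nor the W10min peak, and those of W3h and W24h did not overlap.

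A further 3 sites on chromosome 4 had like values. AT4G06477, AT4G06700 and AT4G06708 each had 1.78-fold with q 4.54e-06 in HS, and 1.92, 1.89 and 1.89-fold in HT0. In W10min they had 3.49, 3.45 and 3.79-fold, and in WT0 2.95, 2.93 and 3.52-fold. The listed pieces were 225 to 234 bp wide at AT4G06477 and 62 to 76 bp at AT4G06700. At AT4G06708 they spanned 41 bp over all lists and ended at the same base, 3965636, in all 6 lists although q in WT0 was 3.63e-65. AT3G33072, on chromosome 3, formed the only site with a peak in the 4 wounding lists and in neither heat list, with 3.68, 3.81, 3.16 and 2.92-fold in WT0, W10min, W3h and W24h.

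**Figure D5:**
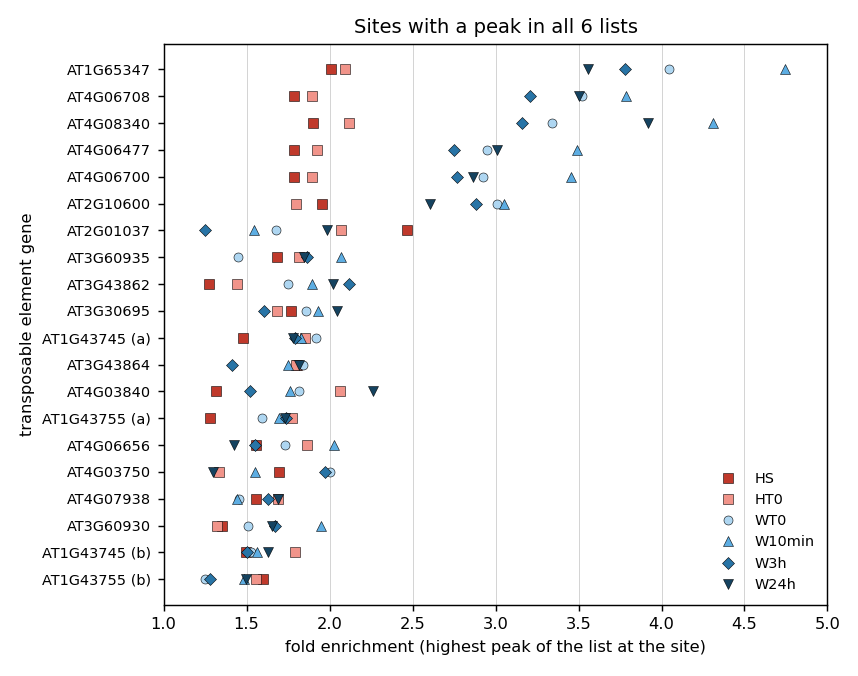
Fold enrichment (x axis) in each of the 6 lists at the 20 sites with a peak in every list, named by transposable element gene and ordered by median fold, with (a) and (b) for separate sites of 1 gene. At the upper 6 sites, AT1G65347 to AT2G10600, the symbols of the 4 wounding lists lie to the right of both heat lists, which stand between 1.78 and 2.12.

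The site of AT1G65347 had the highest median fold of all 20 and was also the widest. In WT0 it was a single peak of 3442 bp, and over the 4 wounding lists it had 4.04, 4.74, 3.78 and 3.56-fold in order of time. The heat lists held 2 shorter peaks there, up to 2.01-fold in HS and 2.09-fold in HT0. It ranked first among peaks at transposable element genes in WT0, W10min and W3h, and 37 of 387 in HS. The wounding peaks were also annotated to the body of UBQ13, a polyubiquitin gene, and to the promoter of the cytochrome P450 gene CYP96A3. UBQ13 is known to carry inserted mitochondrial DNA in Columbia, as is the excluded stretch of chromosome 2 from 3.2 to 3.65 Mb. Peaks in that stretch had a median of 1.90-fold in HS and 2.04-fold in HT0, and of 3.91, 4.39, 3.12 and 3.91-fold in WT0, W10min, W3h and W24h. The part of mitochondrial DNA in these values was not tested.

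The ONSEN copies were the transposable elements with a known link to heat shock factors, and of 8 copies looked up, 4 had a peak in some list, AT1G48710, AT1G58140, AT3G61330 and AT5G13205. The other copies, AT1G11265, AT1G21945, AT3G32415 and AT3G59720, had none in any list. In HS the 4 copies held 12 peaks of 1.28-fold to 1.94-fold, and in HT0 16 peaks of 1.25-fold to 1.82-fold. A q no higher than 0.05 was given to 2 of the 12 in HS and 5 of the 16 in HT0, and a q of 1 was listed for 7 and 4. ONSEN was thus listed in both heat lists, with peaks that were weak in both and no more numerous after 30 min of heat. WT0 and W3h had 0 peaks at ONSEN, W10min had 1 (1.81-fold, q 0.0685) and W24h had 2 (lowest q 0.0705).

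AT1G48710 had the strongest ONSEN peaks after heat, with 4 peaks in HS up to 1.94-fold (q 0.00325) and 3 in HT0 up to 1.70-fold (q 0.0283). AT3G61330 had 2 peaks in HS, both with a q of 1, and 5 in HT0 up to 1.82-fold (q 0.00345). AT5G13205 had 4 in HS up to 1.64-fold and 3 in HT0 up to 1.59-fold, and AT1G58140 had 2 in HS up to 1.54-fold and 5 in HT0 up to 1.63-fold. An overlap with HT0 was seen for 4 of the 12 HS peaks at ONSEN. The share was 56.6% for HS peaks at transposable element genes and 25.8% for all HS peaks outside the stretches. An overlap with HS was seen for 5 of the 16 HT0 peaks, against 42.6% and 41.5% in the same order. The 2 HS peaks of lowest q at ONSEN, both at AT1G48710, met no HT0 peak. They had 1.94-fold (q 0.00325) and 1.92-fold (q 0.00833). The gene models of the 4 copies are 3963 to 4071 bp long in the RefSeq table, and a terminal repeat outside the model carries no row of its own. Such a peak would show only where it falls into another feature. Within 5 kb of an ONSEN peak the lists held 12 peaks annotated to neighbouring genes. The one of highest fold was in HT0, with 1.94-fold (q 3.75e-05) at GILP (AT5G13190), near AT5G13205. HS had peaks of 1.85-fold (q 0.0117) and 1.67-fold (q 0.0213) in the promoter or body of AT5G13210, next to AT5G13205.

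Peaks that also touched a promoter lay where transposable elements border coding genes. The intervals drawn from HT0 held 10 of the 34 in HS and 8 of the 34 in HT0. A promoter row can be long, so a peak can be listed for a gene at some distance. AT2G26630 led in HS, at chromosome 2, 11328140 to 11328263, with 2.02-fold (q 1.22e-04), in the promoters of AT2G26620 and of KCS11, a fatty acid elongation enzyme. Its HT0 peak had 1.31-fold and a q of 1. AT1G65347, described above, and 2 peaks of the ONSEN copy AT1G48710, in the promoters of AT1G48720 (1.94-fold) and AT1G48700 (1.92-fold), followed.

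AT2G15800 had a peak of 1.92-fold (q 0.00833) in HS at chromosome 2, 6880932 to 6881211, in the promoter of SQN. SQN encodes cyclophilin 40, a partner protein of the chaperone HSP90. The SQN promoter and gene had a peak in none of the other 5 lists. In W10min the leading peaks with a promoter row, after AT1G65347, were AT3G60930 in the promoter of AT3G60920 (2.66-fold, q 1.73e-06) and AT1G27285 in the promoter of AT1G27290 (2.16-fold, q 0.00274). Neither met a WT0 peak, although the WT0 list held another peak in the promoter or body of each of these coding genes.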

How the data were processed

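Peaks came from 6 lists, 1 per condition, made from concatenated reads per the labels. Bowtie2, SAMtools, MACS2 and build TAIR10 are named in the submitters' processing notes, without versions or thresholds. Per the file headers, the authors deposited a fold enrichment ratio for every peak. Per the file headers, the authors also deposited its −log10 q.

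Deposited starts count from 0 (161 transposable element gene rows began at a RefSeq gene start after adding 1, and 0 as deposited), and 1 was added. Names came from a RefSeq table of TAIR10.1, in which all 388 genes matched. Element families and base sequences were not used here, since no table of either was at hand, and the planned search for heat shock elements was not run. Peaks met at an overlap of 1 bp or more. The share that meets time 0 over all peaks outside the stretches is the background.

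Peaks named are the 3 highest folds per list, 8 sites present in all lists, by median fold, the 5 HS and 3 W10min peaks of highest fold without a time 0 peak, likewise with a promoter row, and all ONSEN copies. Others are marked in the text. The peaks, lists and rules were chosen with earlier results of these data known. Joining and overlap steps were tested on simulated data. Alternatives were thresholds on q, class, overlap, row joining, the stretches, the time 0 list and equal numbers of peaks. Python 3.11.15, pandas 2.3.3 and numpy 2.4.6 were used.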

Additional observations from a re-analysis of the deposited data

Results flagged for a closer look

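The number of peaks at transposable element genes differed from time 0 in opposite directions in the 2 series. HS had 387 and HT0 495, a difference of -108. W10min had 130 against 87 in WT0, a difference of 43, W3h had 126 against 87, a difference of 39, and W24h had 201 against 87, a difference of 114. All peaks outside the stretches went the other way, with 1889 in HS against 1136 in HT0, and 1367, 548 and 426 against 1405 in WT0. Those at transposable element genes were 20.5% in HS and 43.6% in HT0, and 6.19, 9.51, 23.0 and 47.2% in the wounding lists in order of time. With 1 list per condition and depth unknown, the difference between the series was not tested.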

How the results depend on the processing

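Of 58 alternative values, 35 stayed near the value reported (counts within 1.5 times, shares within the 95% binomial interval of the share) and 23 did not. That interval treats peaks as independent and is wider in lists with fewer peaks. It served only as a limit for this sorting and measures no spread between replicates. Counts were unchanged with rows not joined. None moved beyond the limit with rows of the transposable element gene class alone or with both chromosome 2 stretches kept. These settings had little room to move a count. Between 90.7% and 93.5% of the peaks had such rows alone, and the stretches held 20 (WT0) to 47 (HS) further peaks. Keeping q no higher than 0.05 left 145 peaks in HS, 256 in HT0, and 49, 82, 72 and 104 in WT0, W10min, W3h and W24h. Keeping q no higher than 1e-05 left 18, 55, 13, 24, 17 and 31 in that order. HT0 stayed above HS and WT0 lowest at both thresholds, but at 1e-05 HS was below W10min and W24h, so its place above every wounding list was lost. Among the 400 peaks of highest fold, a setting chosen after seeing the data, HS held 19, HT0 172, WT0 18, W10min 33 and W3h 76, and W24h held 181. There HS was below W10min, W3h and W24h, and W3h was above W10min, unlike in the full lists, where it held 126 and W10min 130. Shares that met time 0 were 39.0% in HS and 24.6% in W10min with a reciprocal overlap of 50%, and 64.6% in W10min, 70.6% in W3h and 52.7% in W24h with peaks of either time 0 list. Sites in all 6 lists numbered 7 with q limited to 0.05 in every list, and 19 with midpoints within 200 bp. No paired analysis was possible because each condition has 1 pooled list, and leaving out a replicate was not possible for the same reason. Depth is unknown, so absence of a peak is not absence of binding.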
